A study of Homo sapiens with 2 samples.

Results

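The 10 genes described here encode proteins of the neuronal cytoskeleton or proteins that are widely stained for as markers of neurons and their precursors. The list is set by gene name, with no threshold on a measured value: the neurofilament genes NEFL, NEFM and NEFH, the related intermediate filament genes INA, NES and VIM, the microtubule genes TUBB3, MAP2 and STMN2, and the enolase gene ENO2. They are 10 of the 59026 genes to which listed transcripts could be matched, and the deposited tables listed 68 of their 73 transcripts in the GENCODE v44 annotation. The 5 not listed belonged to MAP2 (16 of 19 listed) and TUBB3 (14 of 16 listed).

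All values came from 1 group of 2 RNA-seq libraries, replicate 1 and replicate 2, of the human line HEK293 Flp-In T-Rex, made from total RNA after removal of rRNA. HEK293 is an established line from human embryonic kidney that is held as a standard host for transfected genes, and the Flp-In T-Rex version is built to take up 1 inducible transgene at a fixed place. The labels named no treatment and no transgene. Since there was no second condition, the only error available was the spread between the 2 libraries, and nothing said whether these came from separate cultures. The libraries held 25159000 and 27143900 estimated counts over all transcripts.

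Intermediate filaments are rope-like polymers of coiled-coil proteins, and the type present depends on the cell. Vimentin is typical of mesenchymal and many cultured cells, nestin of neural stem cells, and alpha-internexin (INA) and the light, medium and heavy neurofilament proteins (NEFL, NEFM and NEFH) of neurons, where they set the calibre of axons. Microtubules are built of alpha- and beta-tubulin, of which TUBB3 is the neuronal beta form. MAP2 binds and stabilises the microtubules of dendrites, and STMN2, a stathmin of growing axons, binds free tubulin. ENO2 is the gamma subunit of the glycolytic enzyme enolase, known as neuron-specific enolase.

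Expressed here means at least 10 estimated counts for the gene in each library. By this measure 8 of the 10 genes were expressed and 2, NEFH and STMN2, were not. The share over all matched genes was 30.9% (18238 of 59026), and over protein-coding genes it was 69.2% (13755 of 19885), so the count of 8 was close to what protein-coding genes in general gave. The expressed members were spread over nearly the whole range of these 13755 genes. VIM ranked 170th and exceeded 98.8% of them, while NEFM exceeded 2.39%.

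To compare genes, each transcript's estimated count was divided by its length and scaled so that every library summed to 1000000. The result, summed over a gene's transcripts, is called its level below. Expressed protein-coding genes had a median level of 9.57, with quartiles of 3.35 and 22.5. By their means, VIM and ENO2 lay above the upper quartile, NEFL just under it, INA between the lower quartile and the median, and the other 6 members below the lower quartile.

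**Figure D1:**
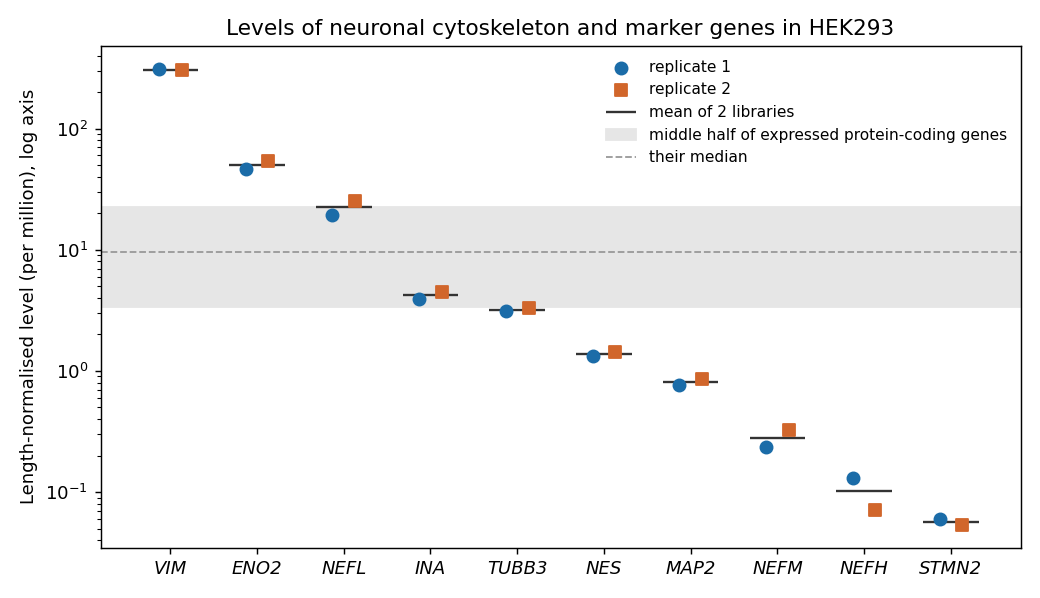
Length-normalised level (scaled to 1000000 per library, log axis) of each gene, with circles for replicate 1, squares for replicate 2, a bar at the mean, and a grey band for the quartiles (3.35 to 22.5) around the median (9.57, dashed) of expressed protein-coding genes. The levels ran from 306.9 for VIM down to 0.0569 for STMN2, and the pair of points of each gene lay close together except for NEFH.

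Among the intermediate filament genes, VIM (ENSG00000026025, chr10:17228241-17237593, plus strand) was the highest. Its estimated counts were 15506 and 16568, and its level was 311.5 and 302.2, a mean of 306.9 ± 6.54 (SD, n = 2). It made up 80.5% of the summed level of the 10 genes in replicate 1 and 77.1% in replicate 2 (78.8% ± 2.45, SD, n = 2). Thus vimentin RNA outweighed the other 9 genes together in both libraries. Set among the 13 cytoplasmic intermediate filament genes examined, which also include keratins, peripherin, desmin, GFAP and synemin, VIM held 69.9% ± 1.03 of the level.

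NEFL (ENSG00000277586, chr8:24950955-24956721, minus strand) was the only neurofilament gene with a high count. It had 1765 and 1993 estimated counts, and a level of 19.4 in replicate 1 and 25.2 in replicate 2 (22.3 ± 4.11, SD, n = 2). It exceeded 74.8% of expressed protein-coding genes and was above the median of these in both libraries. The size-factor-normalised counts of the gene were nearly equal, at 1868 and 1848, so the gap in level came with the division by transcript length, the counts being split differently between a long and a short transcript in the 2 libraries.

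The other 2 subunits of the neurofilament triplet were near the lower end of detection. NEFM (ENSG00000104722, chr8:24913758-24919098, plus strand) had 13.7 estimated counts in replicate 1 (exact Poisson 95% interval 7.65 to 23.5) and 20.2 in replicate 2 (12.2 to 30.9). Its level was 0.234 and 0.327 (0.281 ± 0.0652, SD, n = 2). NEFH (ENSG00000100285, chr22:29480218-29491390, plus strand) had 13 counts (6.92 to 22.2) and 8 counts (3.45 to 15.8), with levels of 0.131 and 0.0718 (0.101 ± 0.0417). Both genes were therefore measured, but on so few reads that their counting intervals overlapped in each library. NEFL held 98.2% and 98.4% of the summed level of the 3 neurofilament genes.

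INA and NES lay between these extremes. INA (ENSG00000148798, chr10:103277138-103290346, plus strand) had 336 and 425 estimated counts and a level of 3.94 and 4.46 (4.20 ± 0.362, SD, n = 2). NES (ENSG00000132688, chr1:156668763-156677407, minus strand) had 194 and 233 counts and a level of 1.33 and 1.43 (1.38 ± 0.0678). INA was above NES in both libraries, and the 2 ranges did not overlap. INA exceeded 29.1% of expressed protein-coding genes and NES 14.2%.

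Of the microtubule genes, TUBB3 (ENSG00000258947, chr16:89921392-89938761, plus strand) had 131.9 and 159.7 estimated counts and a level of 3.10 and 3.28 (3.19 ± 0.128, SD, n = 2). MAP2 (ENSG00000078018, chr2:209424047-209734147, plus strand) had 63.0 and 64.0 counts and a level of 0.761 and 0.853 (0.807 ± 0.0646). STMN2 (ENSG00000104435, chr8:79611117-79666158, plus strand) had 3 counts in each library (exact Poisson interval 0.619 to 8.77), which is the number that a count of 0 allows, and a level of 0.0602 and 0.0537. TUBB3 was above MAP2 and MAP2 above STMN2 in both libraries. STMN2 was thus at the limit of detection.

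ENO2 (ENSG00000111674, chr12:6913745-6923698, plus strand) was the second highest of the 10. It had 2576 and 3193 estimated counts and a level of 46.3 in replicate 1 and 54.2 in replicate 2 (50.3 ± 5.58, SD, n = 2). It exceeded 90.2% of expressed protein-coding genes. Both values were above those of every other member except VIM.

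The order of the levels was VIM, ENO2, NEFL, INA, TUBB3, NES, MAP2, NEFM, NEFH and STMN2, in each of the libraries. A pair was called ordered where the libraries agreed on which was higher and the gap between mean levels was more than both SDs added together. With 2 libraries the smallest two-sided p that an exact sign-flip test can give is 0.5, so no p was computed. By this rule 8 of the 9 neighbouring pairs were ordered. VIM was 6.10-fold above ENO2, ENO2 2.25-fold above NEFL, NEFL 5.31-fold above INA, and INA 1.32-fold above TUBB3. TUBB3 was 2.32-fold above NES, NES 1.71-fold above MAP2, and MAP2 2.88-fold above NEFM. These gaps were larger than the spread between the libraries.

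The last steps were less secure. NEFM was 2.77-fold above NEFH, with ratios of 1.79 in replicate 1 and 4.55 in replicate 2, and the order was lost when counts were not divided by length. NEFH and STMN2 could not be ordered: their difference of 0.0443 was smaller than their SDs added together, 0.0462. NEFH was called higher on normalised counts not divided by length (3.55-fold), and when abundant non-coding, mitochondrial and ribosomal RNA was left out of the scaling total (1.77-fold), where all 9 pairs were ordered. The order of TUBB3 and NES rested on length. NES, whose transcript of 5568 nt is the longest of the leading models, had more normalised counts than TUBB3 (210.7 ± 7.63 against 143.8 ± 6.05), while its level was lower.

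The libraries gave the members similar values. Replicate 2 minus replicate 1, on the scale of log2(normalised count + 1), was between -0.16 and 0.15 for VIM, ENO2, NEFL, INA, TUBB3, NES, MAP2 and STMN2. It was 0.34 for NEFM and -0.81 for NEFH, whose normalised counts of 13.8 and 7.42 were 1.85-fold apart. Of the 9 members with a mean normalised count of at least 10, 0 differed by over 2-fold, where 5.23% of all genes did (1000 of 19110). The median size of the difference was 0.12 for the members and 0.28 for all these genes, and 5 of the 9 were higher in replicate 2.

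The transcripts of a gene were next set beside each other as shares of the gene's estimated counts. The program that made the counts, RSEM, divides a read that fits several transcripts among them by a model, so a share is an estimate. The intervals given are exact Clopper-Pearson 95% intervals and cover counting error only. Of the 68 transcripts, 30 were above 0 in both libraries, 15 were at 0 in 1 library and 23 were at 0 in both. INA, NES and NEFH have 1 listed transcript each, and all STMN2 counts fell on STMN2-201. The other 6 genes had at least 2 transcripts with counts, and all 6 had the same leading transcript in both libraries, against 81.9% of the 14248 genes with several transcripts (11664). On length-normalised levels this was 5 of 6, since MAP2 was then led by MAP2-205 in one library and by MAP2-212, a model with 0 and 5.70% of the counts (0 and 3.65 counts), in the other.

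**Figure D2:**
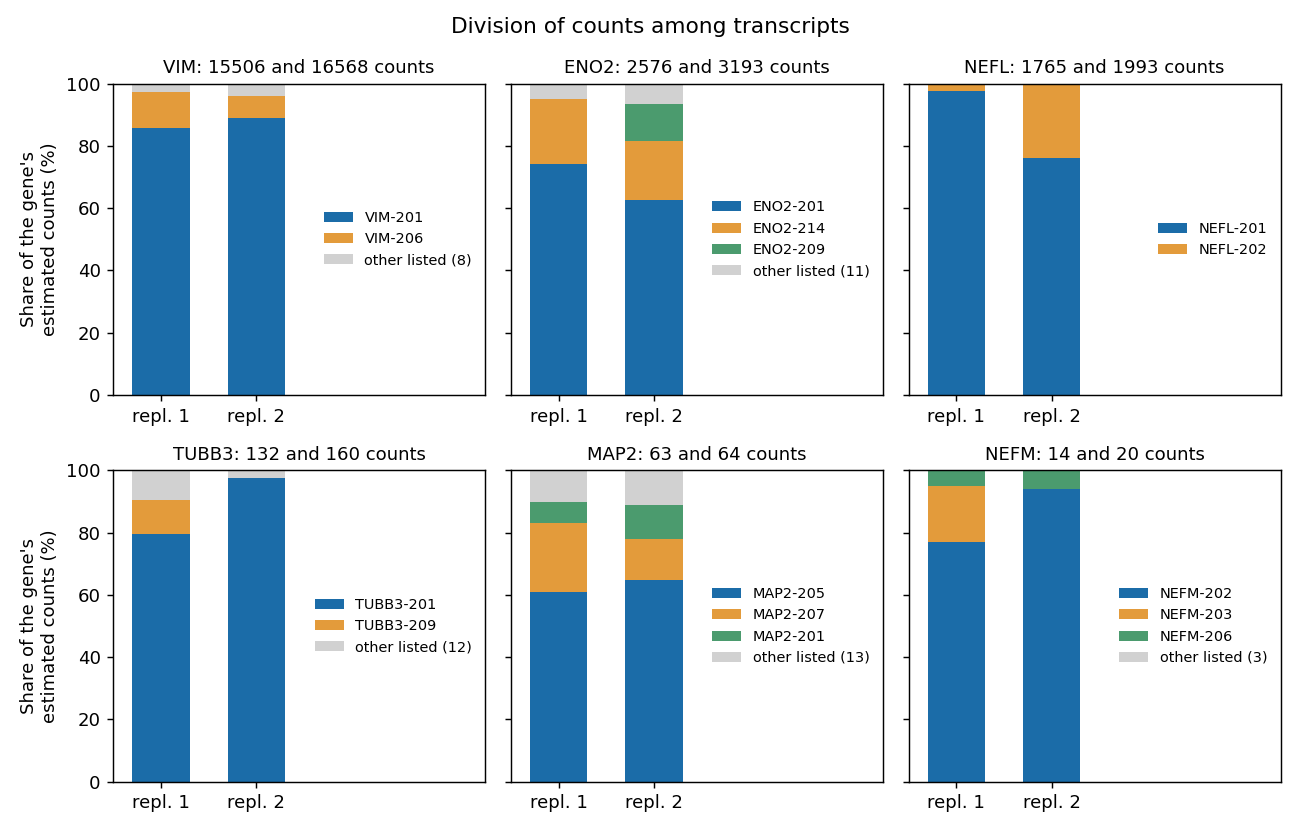
Share of each gene's estimated counts (y axis, %) held by its transcripts in replicate 1 and replicate 2, with coloured segments for transcripts that hold a mean of at least 5% and grey for the sum of the others; gene totals stand above each panel. The dark segment was the largest in every bar, and the orange NEFL-202 segment was 2.33% in replicate 1 and 23.8% in replicate 2.

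Whether the leading pair of transcripts was divided alike in the 2 libraries was tested with a two-sided Fisher's exact test on rounded counts, adjusted by Benjamini and Hochberg over 14248 genes. The test compares these libraries and no condition, and its p-values, like the intervals, cover counting error only, treating estimated counts as independent molecules. It passed for 3 of the 6 members, NEFL, VIM and TUBB3, and for 52.9% of all genes tested (7538), so the members' share was near the background. It did not pass for ENO2, MAP2 or NEFM. Shifts outside the leading pair are not covered by the test, such as that of ENO2-209, with 0.02 counts in replicate 1 and 381 in replicate 2.

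VIM-201, the full-length mRNA of 1868 nt in 9 exons, encodes 466 amino acids. It held 85.9% of the counts in replicate 1 (95% interval 85.3 to 86.4) and 88.9% in replicate 2 (88.4 to 89.4). VIM-206, which GENCODE classes as a target of nonsense-mediated decay, held 11.4% (10.9 to 11.9) and 7.12% (6.74 to 7.52). The shift between the pair was past the threshold (Fisher's exact test, adjusted p = 1.26e-36) with 1764 against 1180 counts for VIM-206. VIM-201 led in both libraries by a wide margin.

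VIM-206 keeps intron 7 of the gene, 404 nt at chr10:17235890-17236293, and its reading frame runs 20 bases into the intron before it meets a stop codon, which leaves 431 amino acids. The stretch is shown because it is where the pair of models parts, with the stop codon in capitals (GRCh38, chr10:17235860-17235929, plus strand).
VIM-206: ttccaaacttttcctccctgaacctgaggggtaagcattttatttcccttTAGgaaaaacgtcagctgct

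Of the 2223 words of 50 bases in VIM-206, 452 were absent from VIM-201, and 48 of the words of VIM-201 were absent from VIM-206. Against all other listed transcripts of the gene, 3 words were particular to VIM-206 and 0 to VIM-201. On the other strand, VIM-AS1 overlaps VIM exons by 656 bases and had 89.0 and 97.2 counts. Whether the counting used strand was not given in the sources used here.

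ENO2 was divided among 3 coding models. ENO2-201, of 12 exons and 434 amino acids, held 74.3% of the counts in replicate 1 (72.6 to 76.0) and 62.6% in replicate 2 (60.9 to 64.3). ENO2-214 held 20.9% (19.3 to 22.5) and 18.9% (17.5 to 20.3). ENO2-209 held 0.02 counts, or 0.000776%, in replicate 1 (up to 0.143%) and 381 counts, or 11.9%, in replicate 2 (10.8 to 13.1). Thus ENO2-214 kept a like share in both libraries, and ENO2-209 had next to no counts in replicate 1. The ratio of the leading pair, ENO2-201 and ENO2-214, did not pass the test (Fisher's exact test, adjusted p = 0.422).

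Both shorter models skip a pair of coding exons without shifting the frame. ENO2-214 lacks exons 6 and 7 of ENO2-201, 357 nt or 119 codons, and encodes 315 amino acids. ENO2-209 lacks exons 4 and 5, 129 nt or 43 codons, and encodes 391. The spliced junctions below tell the models apart. Each line joins the last 20 bases of one exon to the first 20 bases of the next, the latter in capitals (GRCh38, chromosome 12, plus strand).
ENO2-201, exon 5 ending at 6917107 to exon 6 starting at 6917581: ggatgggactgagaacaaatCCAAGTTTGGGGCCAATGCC
ENO2-214, the same exon end to the exon starting at 6919566: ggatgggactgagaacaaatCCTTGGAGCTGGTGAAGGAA
ENO2-201, exon 3 ending at 6916512 to exon 4 starting at 6916671: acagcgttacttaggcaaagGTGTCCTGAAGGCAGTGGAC
ENO2-209, the same exon end to the exon starting at 6917581: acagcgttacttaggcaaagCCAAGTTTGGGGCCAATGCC

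The models also differ at their outer ends and at the start of exon 2. ENO2-209 ends at 6923184, against 6923697 for ENO2-201, and has 384 bases after its stop codon, against 897. ENO2-214 and ENO2-209 begin their second exon 3 bases earlier than ENO2-201, ahead of the start codon. The 3 bases are in capitals below (GRCh38, chr12:6915798-6915827, plus strand).
ENO2 intron 1 end: ttccttcccttccacccgagGAGatcccag

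Of the 2245 words of 50 bases in ENO2-201, 480 were absent from ENO2-214 and 746 from ENO2-209. In the other direction, 97 of 1862 words of ENO2-214 and 98 of 1597 of ENO2-209 were absent from ENO2-201. Against all other listed transcripts of the gene, 48 words were particular to ENO2-214, 47 to ENO2-209 and 0 to ENO2-201. Between paralogs the gene was well separated, with 1 word of ENO2-201 shared with ENO1.

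**Figure D3:**
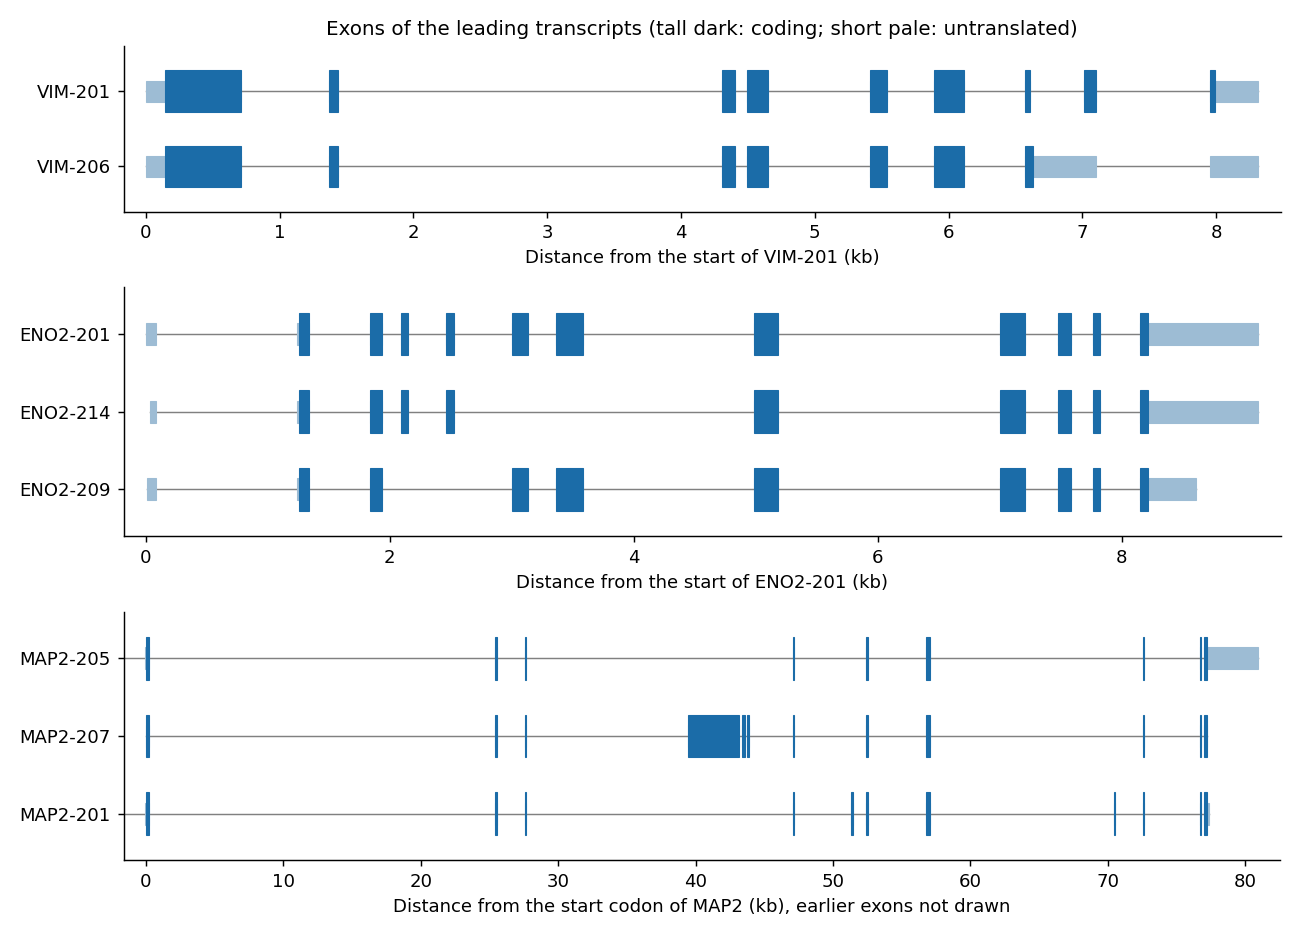
Exons of the leading transcripts of VIM, ENO2 and MAP2 along the gene (x axis, kb), with coding sequence as tall dark boxes and untranslated sequence as short pale boxes. VIM-206 fills intron 7, ENO2-214 and ENO2-209 each lack a pair of coding exons, and MAP2-207 holds the long exon of 3714 nt that MAP2-205 and MAP2-201 lack; MAP2 exons ahead of the start codon are not drawn.

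NEFL has 2 listed transcripts. NEFL-201, of 3584 nt in 4 exons, encodes 543 amino acids and held 97.7% of the counts in replicate 1 (96.9 to 98.3) and 76.2% in replicate 2 (74.3 to 78.1). NEFL-202, a single exon of 1497 nt classed as a retained intron, had 41.1 counts in replicate 1 and 473.9 in replicate 2, shares of 2.33% (1.67 to 3.14) and 23.8% (21.9 to 25.7). This was the largest shift of a leading pair among the members in size of share (Fisher's exact test, adjusted p = 8.78e-93), while the gene's total did not move with it.

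NEFL-202 starts 109 nt upstream of NEFL-201 and runs 247 nt into its first intron of 1166 nt. Of its 1448 words of 50 bases, 355 (24.5%) were absent from NEFL-201. Counting protein-coding transcripts alone, the level of NEFL was 16.4. A lncRNA on the opposite strand, ENSG00000272157, overlaps NEFL exons by 781 bases and was at 0 in both libraries.

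For NEFM most of the estimated counts were given to a model that is not the canonical one. NEFM-202, which encodes 540 amino acids, held 77.0% of the 13.7 counts in replicate 1 (49.2 to 95.3) and 94.1% of the 20.2 counts in replicate 2 (75.1 to 99.9). NEFM-201, which encodes the full protein of 916 amino acids, was at 0 in both. NEFM-203 held 18.1% and 0, and NEFM-206 4.88% and 5.89%. The leading pair did not differ past the threshold between libraries (Fisher's exact test, adjusted p = 0.238).

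NEFM-202 lacks the first exon of NEFM-201, 1113 nt of which 1080 are coding, and starts 69 nt after its end, within the intron. A lncRNA on the opposite strand, ENSG00000272163, overlaps NEFM exons by 960 bases and had 4.26 and 3.81 counts. At these counts a share of NEFM-201 below the 3 counts that a 0 allows would not have been detectable.

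TUBB3-201, of 4 exons and 450 amino acids, held 79.6% of the counts in replicate 1 (71.7 to 86.1) and 97.7% in replicate 2 (93.7 to 99.3). TUBB3-209, a nonsense-mediated decay model with a reading frame of 55 amino acids, held 10.98% (5.92 to 17.2) in replicate 1 and 0 in replicate 2. The difference was past the threshold (Fisher's exact test, adjusted p = 1.71e-05) and rested on 14 against 0 counts. Of the 14 listed transcripts only TUBB3-201 was above 0 in both libraries.

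TUBB3 is the member whose reads could least be told from those of other genes. Of 1657 words of 50 bases in TUBB3-201, 1537 (92.8%) also occurred in another gene. All 1537 were in a read-through gene from MC1R into TUBB3 (ENSG00000198211), which shares 1584 exon bases on the same strand, and some were also in TUBB2A, TUBB2B, TUBB4B, TUBB4A and TUBB6. The read-through gene was given 16.5 counts in replicate 1 and 0 in replicate 2. With it added, TUBB3 had 148.4 and 159.7 counts and a level of 3.30 ± 0.0324 (SD, n = 2), close to 3.19 without it.

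MAP2 makes a long protein, present in mature dendrites, and a short one, known from developing neurons. They differ by including or skipping a very long exon and the pair of exons after it. In these libraries the short models held most of the estimated counts, a division that depends on the ends of the models and on length, as given below. MAP2-205, a short model of 471 amino acids, held 61.0% in replicate 1 (47.2 to 72.4) and 64.7% in replicate 2 (51.1 to 75.7). MAP2-207, a long model of 1823 amino acids, held 22.2% (12.7 to 34.5) and 13.3% (6.64 to 25.02). The intervals of the pair did not overlap in either library, and the division did not differ past the threshold between libraries (Fisher's exact test, adjusted p = 0.459).

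Summed over the coding models that span the long exon, those without it (MAP2-201, MAP2-203, MAP2-205 and MAP2-208) held 67.6% and 75.5%, a mean of 71.6% ± 5.58 (SD, n = 2). Those with it (MAP2-202 and MAP2-207) held 22.2% and 13.3%, a mean of 17.8% ± 6.30. The long exon lies at chr2:209692637-209696350 and, with the pair of exons after it, adds 1352 codons. The junctions below show the exon ending at 209680827 joined to the long exon in MAP2-207, which starts at 209692637, and to the exon starting at 209700277 in MAP2-205, with the downstream exon in capitals (GRCh38, chromosome 2, plus strand).
MAP2-207: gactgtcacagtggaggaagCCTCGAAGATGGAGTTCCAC
MAP2-205: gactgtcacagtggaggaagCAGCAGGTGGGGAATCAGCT

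MAP2-201, at 6.67% and 10.8% of the counts (8.72% ± 2.90, SD, n = 2), is a short model with 2 further coding exons that MAP2-205 and MAP2-207 both skip, exon 9 of 171 nt (chr2:209704450-209704620) and exon 12 of 93 nt (chr2:209723595-209723687), together 264 nt or 88 codons. The shorter of these exons is printed whole as an example of coding sequence that sets this model apart (GRCh38, plus strand).
MAP2-201, exon 12: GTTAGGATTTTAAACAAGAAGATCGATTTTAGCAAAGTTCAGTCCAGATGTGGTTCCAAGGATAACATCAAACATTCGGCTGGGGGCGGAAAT

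The models of MAP2 are unlike in their ends, which bears on the shares. MAP2-205 carries 3721 bases after its stop codon and MAP2-207 none, so a read from that stretch could be given to MAP2-205 and not to MAP2-207. MAP2-202, the other long model, also carries 3721 bases there and was at 0 in both libraries. By length-normalised level MAP2-205 held 33.8% of the gene. The canonical model was not among the transcripts listed. The level of MAP2 depended on the models counted, at 0.466 with protein-coding transcripts alone and 0.266 with the gene total divided by the canonical length.

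Beside their relatives, ENO2 and the 3 microtubule genes were minor forms. ENO2 made up 3.58% and 4.25% of the level of the 3 enolases (3.91% ± 0.478, SD, n = 2), where ENO1, the form of most tissues, was at 1217.3 ± 26.0. TUBB3 made up 0.497% and 0.490% of the level of 7 beta-tubulins. TUBB led these at 418.3 ± 13.7, followed by TUBB4B at 117.6 ± 11.7, and TUBB3 was below all 6 others in both libraries.

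MAP2 made up 0.840% ± 0.0307 of the level of 8 microtubule-associated protein genes, of which MAP4, the broadly expressed form, was at 33.6 ± 0.730. STMN2 made up 0.0215% ± 0.00170 of the level of 4 stathmins, led by STMN1 at 245.3 ± 45.4. DCX, a microtubule protein of migrating neurons, was at 0 in both libraries. MAP1B was at 27.2 ± 2.26, MAP7 at 22.9 ± 0.0774, STMN3 at 20.3 ± 3.25 and MAPT at 6.81 ± 0.934. MAP6 was at 3.72 ± 0.0832 and MAP1A at 1.08 ± 0.189, and STMN4 was not expressed. In the list of 10 other microtubule-associated and stathmin genes 8 were expressed, with a median level of 13.6, against 2.28 over the 10 members.

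Of 10 other intermediate filament genes 9 were expressed, with a median level of 20.9. The nuclear lamins LMNB1 (91.4 ± 1.52) and LMNB2 (56.1 ± 9.44) were the highest, and DES, the muscle filament desmin, was not expressed. NEFL was 5.08% ± 0.970 of the level of the 13 cytoplasmic genes, INA 0.957% ± 0.0887 and NES 0.314% ± 0.0175.

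**Figure D4:**
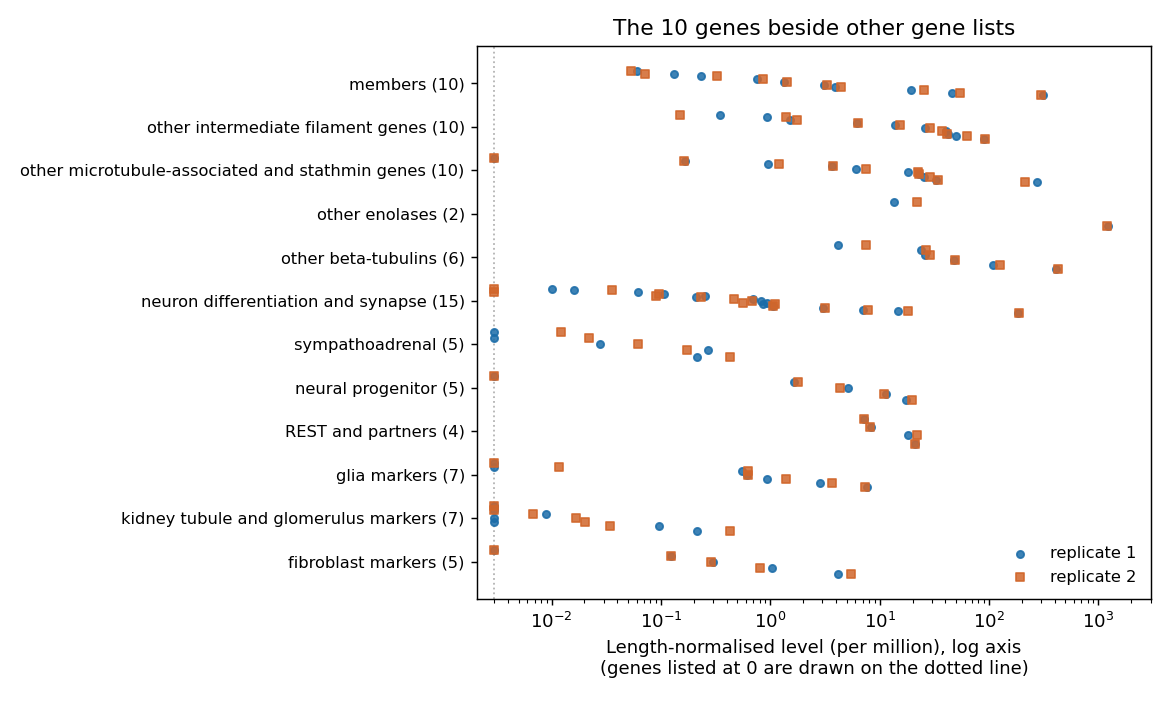
Length-normalised level (scaled to 1000000 per library, log axis) of each gene of the lists compared, 1 row per list with the number of genes in brackets, circles for replicate 1 and squares for replicate 2; genes at 0 lie on the dotted line. The 10 genes covered the range from 0.0569 to 306.9, and the kidney and sympathoadrenal markers all lay below 1.

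The defining markers of neurons were mostly low. In a list of 9, which held splicing and synaptic genes such as RBFOX3 and SYN1, 6 were expressed, with a median level of 0.750 and a summed level of 13.3 in replicate 1 and 14.1 in replicate 2. GAD1, which makes the transmitter GABA, was the highest at 7.50 ± 0.559, followed by the synaptic vesicle gene SYP at 3.10 ± 0.0908. ELAVL3, ELAVL4 and SYN1 were not expressed, and ELAVL4 had 1 and 0 counts. VIM, ENO2 and NEFL were thus above every marker of this list. The wider list of 15 neuron differentiation and synapse genes had 10 expressed, and its highest, UCHL1 (185.4 ± 1.80) and NCAM1 (16.3 ± 2.36), are made in other cells too.

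The neural progenitor list was led by MSI1 (18.6 ± 1.49) and PAX6 (11.3 ± 0.368), which were expressed in both libraries. In the sympathoadrenal list 1 of 5 was expressed, CHGB (0.221 ± 0.0672), with 16 and 11 counts. CHGA had a higher mean level (0.321 ± 0.153) but was under the count minimum, with 7 counts in replicate 1. Both are secretory granule genes. REST, a repressor that silences neuronal genes outside neurons, and its partners RCOR1, EHMT2 and SIN3A were all expressed in both libraries. SIN3A was at 21.1 ± 0.140, EHMT2 at 20.2 ± 2.74, and REST itself at 8.25 ± 0.217.

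Markers of other cell types were checked in the same way. Of 7 kidney tubule and glomerulus markers 1 was expressed, with a summed level of 0.318 and 0.510. The highest was the water channel AQP1 (0.322 ± 0.154), followed by NPHS1, while UMOD and AQP2 were at 0 in both libraries. These markers were thus mostly not expressed, and what they say of the origin of the line was not tested. Of 7 glia markers 5 were expressed, with a summed level of 12.6 and 13.7, MBP (7.51 ± 0.229) and OLIG2 (3.27 ± 0.587) the highest and S100B at 0. Of 5 fibroblast markers 3 were expressed, with sums of 5.67 and 6.72, led by COL1A1 (4.86 ± 0.915) and PDGFRA (0.922 ± 0.163), with DCN at 0. In bulk RNA a few cells with a high level and many with a low one cannot be told apart.

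Some counts stand beside overlapping genes. NT5C2, on the opposite strand, overlaps INA exons by 452 bases and had 921.9 and 869.7 counts, more than INA itself. ENSG00000234961, opposite VIM over 619 exon bases, had 107.3 and 122.2 counts, few beside those of VIM. LRRC23, on the strand of ENO2, shares 0 exon bases with it and had 415.3 and 387.0 counts. The share of words also found on the opposite strand was 12.6% for INA-201, 43.8% for VIM-201, 17.6% for NEFL-201 and 7.26% for NEFH-201. The part of overlapping genes in the levels was not tested.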

How the data were processed

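The authors extracted total RNA, depleted rRNA, made TruSeq libraries and deposited, per transcript, an estimated count and a size-factor-normalised signal, the estimated count divided by 0.945 in replicate 1 and 1.08 in replicate 2 (EB-Seq). The submitters' processing notes name FastQC, STAR 2.7.0d, RSEM 1.3.3 and R 3.6.3. The strand setting was not given in the sources used here.

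Transcripts were matched to GENCODE v44 (GRCh38) by identifier without version, 202217 of 206696, of which 173547 had the same version. Of the members' 10 leading transcripts, 7 had another version there, so their lengths are those of v44. The estimated counts were used as deposited. Levels were counts over transcript length (no effective-length correction), scaled to 1000000. A count of 0 allows up to 3 counts. Intervals were exact Poisson or Clopper-Pearson (95%), each from a single library, and cover counting error only. The reads carried no molecular identifiers, so copies of the same molecule could not be told from separate molecules. Differences between libraries used log2(normalised count + 1). Fisher's exact test was adjusted over 14248 genes. It was run on simulated independent Poisson counts as a check of the code. These counts hold no read sharing between transcripts and no library variation beyond counting error, so the check covers neither. Words of 50 bases were compared across all transcripts.

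All members were named, with each transcript of at least 5% mean share; models mentioned beyond these and single genes of other lists beyond the 2 highest and those at 0 were picked with their values in view. The members and lists were chosen with earlier results of these data known. The tables of METTL8 transcripts were not used, and 1 gene of the comparison lists is not reported here. Alternatives were other count minimums, pseudocounts, lengths and transcript sets, and single libraries. Python 3.11.15, numpy 2.4.6, pandas 2.3.3, scipy 1.17.1 and matplotlib 3.10.9 were used.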

Additional observations from a re-analysis of the deposited data

How the results depend on the processing

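Without division by length, on the deposited normalised counts, the log2 ratio of TUBB3 to NES turned from 1.21 to -0.55, the VIM share of the members went from 78.8% to 74.2%, and 7 neighbouring pairs in place of 8 were ordered in the direction given: NEFM and NEFH lost their order, and NEFH became ordered above STMN2. With abundant non-coding, mitochondrial and ribosomal RNA left out of the scaling total, 9 pairs were ordered. The number of expressed members went from 8 to 10 with a minimum of 1 count, and to 6 with a minimum of 100 counts or a level of at least 1. Divided by the canonical length, MAP2 was at 0.266 in place of 0.807. Adding the read-through gene to TUBB3 was chosen after seeing the data. Of 87 alternatives that kept both libraries, 30 moved beyond the spread of the libraries and 1 reversed. The other 56 were not all unchanged. They include the changed counts of expressed members, ordered pairs and shared leading transcripts, and the lost order of NEFM and NEFH. Of the 36 that used a single library, the number of expressed members was 8 without replicate 1 and 9 without replicate 2. The other single-library values lay within the spread by construction and say nothing about stability. No paired analysis was possible because there was 1 group. Depth limited NEFM, NEFH and STMN2, at 3 to 20.2 counts a library.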
